A study of Mus musculus with 64 samples.

Results

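The genes examined were 7 genes of the T helper 17 (Th17) program, chosen by name from the 55809 genes of the deposited count tables. They are the cytokine genes Il17a, Il17f and Il22, the transcription factor gene Rora and the receptor genes Il23r, Il1r1 and Ccr6. All 7 were present in the count tables of all 64 libraries. Values are CPM, the read pairs of a gene per 1e+06 read pairs counted in its library.

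The groups come from mice with altered Foxp3, the gene of the lineage factor of regulatory T (Treg) cells. In the reversible-allele experiment, called KIKO in the labels, female heterozygous mice carried Foxp3-LSL, in which a loxP-flanked Thy1.1 reporter and stop cassette precede a Foxp3-GFP reporter. Cells that transcribe this allele without making Foxp3 protein are called Treg "wannabe" cells. The plusFoxp3 groups came from mice with CD4-CreERT2, whose 4-hydroxytamoxifen (4-OHT) treatment removes the cassette in cells with an active Cd4 promoter. The minusFoxp3 groups came from CD4-WT mice without the recombinase. After 4-OHT, the study sorted GFP-positive cells for plusFoxp3 and GFP-negative, Thy1.1-positive cells for minusFoxp3. The arms thus differ in sort gate as well as in the recombinase. For the untreated day 0 cells the study does not state the gate. Spleen and lymph node cells were taken untreated (day 0) and 3, 7, 14 and 28 days after 4-OHT, as resting (CD62L high, CD44 low) and active (CD62L low, CD44 high) cells, with 2 libraries per group. Both states had 2 libraries of Treg cells from untreated Foxp3GFP mice (GFP Treg). As the mice were heterozygous, Treg cells with the intact allele remained in them. In the degron experiment, every group carried Foxp3-AID, a fusion that is degraded when TIR1(F74G) is expressed from ROSA26 and 5-ph-IAA is given, and every group received 5-ph-IAA for 7 days, so that the ROSA26-WT controls had the fusion and the drug but not the ligase. It held CD73-negative thymic and active peripheral Treg cells of adult female heterozygotes, with 3 TIR1 and 3 WT libraries each, and spleen and lymph node Treg cells of infants, with 4 and 4. For its neonatal experiments the study states hemizygous Foxp3-AID/y males, which have no intact Foxp3 allele. It reports severe autoimmune disease after Foxp3 degradation in neonates. The infant and adult degron groups thus differ in sex and Foxp3 genotype as well as in age.

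Th17 cells are helper T cells that defend mucosal surfaces against bacteria and fungi, and they share many inputs with peripherally induced Treg cells. IL-6 and TGF-beta start the program, RORα, the product of Rora, promotes the transcription of the cytokine locus, and IL-1 and IL-23 maintain it through the receptors encoded by Il1r1 and Il23r. CCR6 guides the cells to tissues that make CCL20. Foxp3 protein restrains this program in Treg cells. Gamma delta T cells and innate lymphoid cells also make IL-17 and IL-22.

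Il17a and Il17f lie side by side on chromosome 1 of GRCm39. Il17a occupies positions 20801129 to 20804720 on the plus strand, and Il17f positions 20847370 to 20860841 on the minus strand, 42.65 kb away. Il1r1 is on the same chromosome at 40264240 to 40356417. Il22 is on chromosome 10 at 118040847 to 118045952, Rora on chromosome 9 at 68561068 to 69295528, Il23r on chromosome 6 at 67399916 to 67468839 and Ccr6 on chromosome 17 at 8454875 to 8475973. The annotation holds Il22b, a near-identical copy of Il22, so that Il22 counts are uncertain. Rora, Il1r1 and Ccr6 each overlap 1 annotated gene of few counts, 2092, 1683 and 742 read pairs over all libraries. For Rora and Ccr6 it lies on the other strand, which reads counted without strand could not separate. For Il1r1 it lies on the same strand.

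The bases before the start sites show where letters known from Th17 regulation stand in these genes. The 250 bases upstream of the first RefSeq start were searched on both strands for AGGTCA, the core that ROR factors read, TGANTCA (AP-1), TTCNNNGAA (STAT) and GTAAACA (forkhead). AGGTCA was present in 14% of 32851 promoters of the same length, TGANTCA in 6.75%, TTCNNNGAA in 7.02% and GTAAACA in 3.17%. The sequences below, from the RefSeq table and found at 1 place each of the GRCm39 chromosome, belong to the 4 genes with a match and read from 5′ to 3′ in the direction of transcription, with matches in capitals.
Il17a, chr1:20800879-20801128, plus strand: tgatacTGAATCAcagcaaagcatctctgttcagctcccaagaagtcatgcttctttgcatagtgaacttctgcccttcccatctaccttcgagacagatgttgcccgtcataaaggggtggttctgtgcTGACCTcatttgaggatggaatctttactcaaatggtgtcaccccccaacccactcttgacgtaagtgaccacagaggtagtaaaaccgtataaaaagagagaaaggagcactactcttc
Il17f, chr1:20854495-20854744, minus strand: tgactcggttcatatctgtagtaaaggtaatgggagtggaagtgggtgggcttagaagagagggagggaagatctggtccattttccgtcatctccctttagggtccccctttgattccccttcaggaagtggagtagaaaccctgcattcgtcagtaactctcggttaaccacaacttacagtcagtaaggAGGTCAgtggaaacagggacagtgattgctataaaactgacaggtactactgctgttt
Il23r, chr6:67468840-67469089, minus strand: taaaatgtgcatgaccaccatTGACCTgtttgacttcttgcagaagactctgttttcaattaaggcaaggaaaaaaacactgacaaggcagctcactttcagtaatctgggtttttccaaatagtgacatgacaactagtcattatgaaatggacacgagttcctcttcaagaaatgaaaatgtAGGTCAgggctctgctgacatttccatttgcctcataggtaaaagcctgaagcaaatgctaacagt
Ccr6, chr17:8454625-8454874, plus strand: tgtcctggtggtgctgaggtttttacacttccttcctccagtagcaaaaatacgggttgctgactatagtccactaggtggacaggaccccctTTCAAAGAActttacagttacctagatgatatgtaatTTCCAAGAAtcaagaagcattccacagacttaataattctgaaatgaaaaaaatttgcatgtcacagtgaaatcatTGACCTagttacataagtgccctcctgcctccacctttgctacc
Il17a held TGACCT, the same core on the other strand, 120 to 115 bases before its start and the AP-1 letters TGAATCA 244 to 238 bases before it. Il17f held AGGTCA 58 to 53 bases before its RefSeq start. That window lies inside the span given above for Il17f, which begins further upstream in the annotation used for counting. Il23r held the core at 229 to 224 and at 66 to 61 bases, and Ccr6 at 44 to 39 bases together with the STAT letters TTCAAAGAA and TTCCAAGAA. The windows of Rora, Il22 and Il1r1 held none of the 4 motifs, and no forkhead letters were found in any of the 7. These are matches of letters, and binding was not measured.

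Library totals were 40813000 to 57419138 read pairs in active and 35097257 to 57049049 in resting cells of the reversible-allele experiment, 27753211 to 34029692 in adult degron and 33704114 to 55801009 in infant libraries. A gene with 3 read pairs had 0.0522 to 0.108 CPM. Levels are not compared between the degron and the other libraries, which were counted with different settings. Foxp3 was at 44.3 to 65.3 CPM in active minusFoxp3 cells, 50.7 and 55.6 CPM in plusFoxp3 cells at day 0, 426 to 594 CPM from day 3 on, and 734 and 817 CPM in GFP Treg cells, as the labels imply. CD4 T cell markers were abundant in every library. The study describes the adult bulk libraries of a group as independent biological replicates, and the labels do not name the mice. The p-values measure the spread between these libraries.

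In active cells, the IL-17 genes fell after Foxp3 was restored, while of the receptor and transcription factor genes Ccr6 alone passed the test, at day 28. Il17a, which encodes the inflammatory cytokine IL-17A, was the most abundant of the 7 per length before restoration. In day 0 minusFoxp3 cells its level was 453 ± 27.2 CPM per kb of exon (SD, n = 2), above Il17f with 135 ± 31.9 and Ccr6 with 44.6 ± 2.00. Rora followed with 19.8 ± 4.90 and Il23r with 16.7 ± 2.37 CPM per kb, which did not differ beyond their spread. Il1r1 had 10.1 ± 0.282 and Il22 had 2.49 ± 0.211 CPM per kb. At day 28 the order in plusFoxp3 cells was led by Ccr6 with 19.4 ± 2.45 and Rora with 16.3 ± 3.27 CPM per kb, whose spreads overlapped. Il23r with 10.4 ± 2.86 and Il1r1 with 5.97 ± 2.58 now stood above Il17a with 3.54 ± 2.30, though the spreads of Il1r1 and Il17a overlapped. Il17f had 0.585 ± 0.0756 and Il22 0.0941 ± 0.133 CPM per kb.

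Il17a in active cells was at 553 and 508 CPM in the 2 minusFoxp3 libraries of day 0 and at 203 and 273 CPM in those labelled plusFoxp3, which were untreated. At day 3 the minusFoxp3 libraries had 301 and 459 CPM and the plusFoxp3 libraries 55.7 and 46.5 CPM. At day 7 these were 763 and 551 against 24.1 and 33.0 CPM. Within a week of 4-OHT, Il17a was thus over 10 times lower in every plusFoxp3 library than in any minusFoxp3 library of the same day. Day 14 gave 522 and 459.5 CPM in minusFoxp3 and 29.9 and 19.6 CPM in plusFoxp3 cells. Day 28 gave 313 and 391 against 2.24 and 6.06 CPM. The groups did not overlap on any day, and the ratio of the means grew from 2.23 at day 0 to 7.44, 23.0, 19.8 and 84.9. GFP Treg cells had 0.645 and 0.312 CPM, below every active library of the reversible allele.

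The day 0 difference in Il17a came before any treatment. Its log2 fold change of plusFoxp3 over minusFoxp3 was -1.14 ± 0.35 (SE), with an edgeR adjusted p of 0.999. It was called when genes with low counts were kept in the fit, with a log2 fold change of -1.16 and an adjusted p of 3.54e-06, as was that of Il17f, at -0.94 with 0.00203. The later fold changes of Il17a were -2.84 ± 0.37 at day 3 (adjusted p 0.00207), -4.49 ± 0.40 at day 7 (4.3e-05), -4.30 ± 0.39 at day 14 (2.27e-05) and -6.40 ± 0.44 at day 28 (1.01e-06). The day 28 effect exceeded that of day 0 by -5.26 ± 0.52 on the log2 scale (adjusted p 0.000155), a contrast added after the data were seen. Without the second plusFoxp3 library, the day 3 call was lost (log2 fold change -2.74, adjusted p 0.0733).

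Il17f, which encodes the close relative IL-17F, moved with Il17a. Active minusFoxp3 cells had 319 and 228 CPM at day 0, 305 and 222 at day 3, 375 and 275 at day 7, 351 and 202 at day 14 and 163 and 111 CPM at day 28. The plusFoxp3 libraries had 172 and 114 CPM at day 0, 7.16 and 14.2 at day 3, 3.27 and 4.39 at day 7, 7.03 and 1.39 at day 14 and 1.29 and 1.08 CPM at day 28. From day 0 to day 3 its plusFoxp3 mean went from 143 to 10.7 CPM, and that of Il17a from 238 to 51.1 CPM. Whether the genes fell at a different pace was not tested. The log2 fold changes were -0.92 ± 0.50 at day 0 (edgeR adjusted p 0.999), -4.56 ± 0.58 at day 3 (0.00184), -6.37 ± 0.63 at day 7 (6.1e-05), -6.04 ± 0.63 at day 14 (8.95e-05) and -6.85 ± 0.66 at day 28 (2e-05). Day 28 less day 0 gave -5.93 ± 0.79 (adjusted p 0.00133) in the added contrast. In a fit of the 4 day 14 libraries alone, the day 14 call was lost (-6.07, adjusted p 0.0726).

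The ratio of Il17a to Il17f counts within a library does not depend on its depth. In the 10 active minusFoxp3 libraries it lay between 0.99 and 3.51. In plusFoxp3 libraries it was 1.18 and 2.40 at day 0, 7.78 and 3.28 at day 3, 7.37 and 7.52 at day 7, 4.26 and 14.0 at day 14 and 1.74 and 5.63 at day 28. On days 3, 7 and 14 both plusFoxp3 libraries were above both minusFoxp3 libraries of the same day, and at days 0 and 28 the groups overlapped. This ratio was compared after its values were seen and was not tested.

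**Figure D1:**
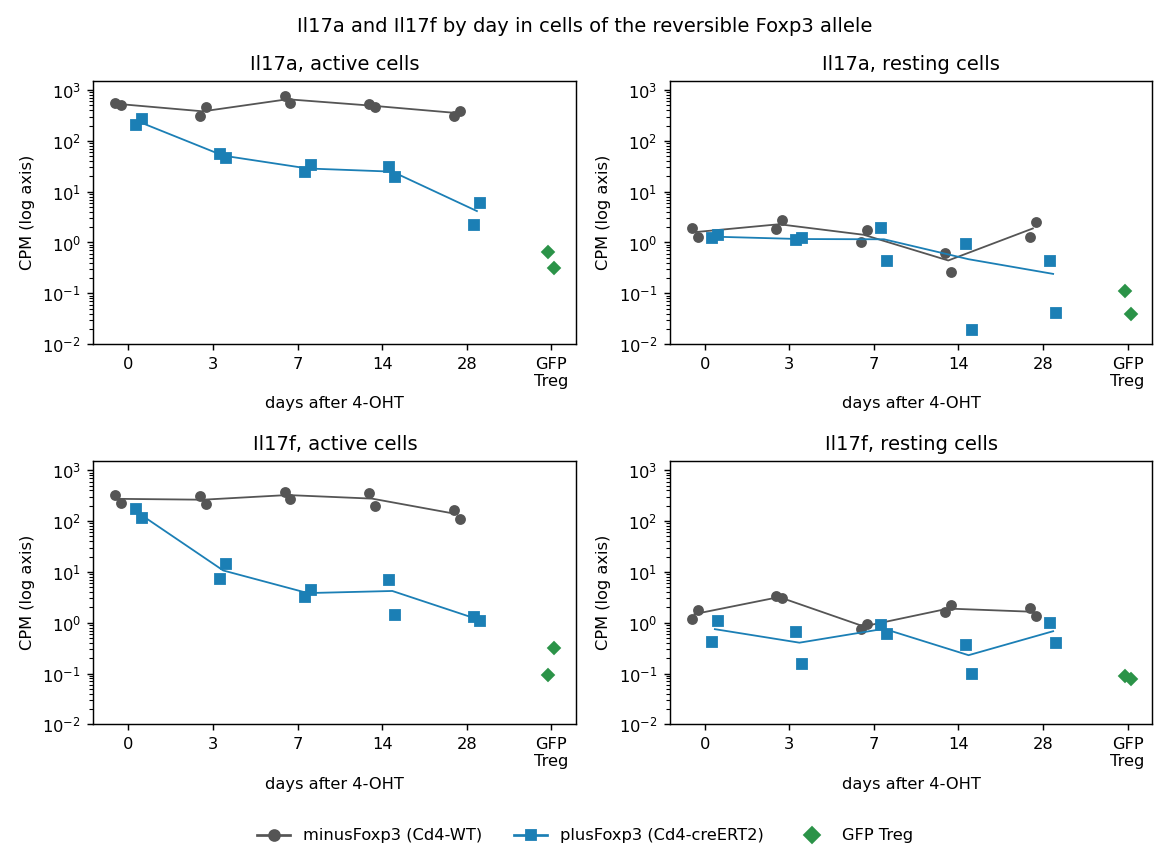
Level of Il17a and Il17f in CPM on a log axis against days after 4-OHT, in active and resting cells of the reversible Foxp3 allele. Each point is 1 library of the plusFoxp3, minusFoxp3 or GFP Treg group, and the lines join group means. Active minusFoxp3 cells stayed between 301 and 763 CPM for Il17a while plusFoxp3 cells reached 2.24 and 6.06 CPM at day 28.

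Il22 encodes a cytokine that acts on epithelial cells. It was low throughout, with 2.59 and 2.92 CPM in active minusFoxp3 cells of day 0 and 2.64 and 4.8 in plusFoxp3 cells. At day 7 minusFoxp3 cells had 3.12 and 9.49 CPM against 1.36 and 2.30 CPM, and at day 14 2.34 and 7.77 against 1.03 and 0.917 CPM. At day 28 one minusFoxp3 library had 9.28 and the other 0.501 CPM, while the plusFoxp3 libraries had 0.209 and 0 CPM, the latter allowing up to the 3 read pairs of its floor. The pairs of libraries did not overlap from day 7 on, but the minusFoxp3 libraries differed several-fold. The log2 fold change at day 28 was -5.43 ± 1.25 (edgeR adjusted p 0.0324). It was -2.22 without the second minusFoxp3 library (adjusted p 0.544), and the call was also lost without the second plusFoxp3 library (0.249) and in the 4 libraries alone (0.318). The differences at days 7 and 14, -1.76 ± 0.99 (0.455) and -2.37 ± 1.03 (0.429), were not called. The near-identical copy Il22b was not called at day 14 (-2.61 ± 0.85, 0.235) or day 28 (-2.13 ± 0.85, 0.326). Against day 0 minusFoxp3 cells, Il22b was called lower in active (-4.37 ± 1.02, 0.00982) and resting GFP Treg cells (-8.16 ± 1.89, 0.0274).

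Ccr6, the CCL20 receptor, passed the threshold between the arms at day 28 alone. Day 28 was not tested against days 3, 7 or 14. The added contrast of day 28 less day 0 gave -1.32 ± 0.32 on the log2 scale (edgeR adjusted p 0.0797), which was not called. Active minusFoxp3 cells had 107 and 100.2 CPM at day 0, and 125 and 84.2 CPM at day 28. The plusFoxp3 libraries had 109 and 111 CPM at day 0, 75.6 and 97.1 at day 3, 75.2 and 67.9 at day 7, 83.9 and 61.2 at day 14 and 41.1 and 49.1 CPM at day 28. From day 3 on both plusFoxp3 libraries lay below both minusFoxp3 libraries of the day. The log2 fold change was 0.10 ± 0.22 at day 0 (edgeR adjusted p 0.999), -0.33 ± 0.23 at day 3 (0.841), -0.51 ± 0.23 at day 7 (0.363) and -0.45 ± 0.23 at day 14 (0.532), and it was called at day 28, at -1.21 ± 0.23 (0.00824). That call was lost without the first minusFoxp3 library (-0.88, adjusted p 0.161), without the first plusFoxp3 library (-1.10, 0.0905) and in the 4 libraries alone (-1.21, 0.0906).

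Rora, Il23r and Il1r1 were called on no day in active cells. Rora, which encodes an orphan nuclear receptor, had 257 and 229.6 CPM in minusFoxp3 and 243 and 183 CPM in plusFoxp3 cells at day 28, which overlapped. Its difference was -0.18 ± 0.21 on the log2 scale (95% interval -0.58 to 0.22, edgeR adjusted p 0.872), against -0.02 ± 0.21 at day 0. The interval thus does not reach a change of 1 on the log2 scale. Il23r, the specific chain of the IL-23 receptor, had 44.2 and 43.4 CPM in minusFoxp3 and 31.0 and 20.9 CPM in plusFoxp3 cells at day 28, without overlap. Its log2 difference was -0.97 ± 0.29 at day 14 (adjusted p 0.186, and 0.0492 with DESeq2) and -0.74 ± 0.29 at day 28 (0.312). Il1r1, the IL-1 receptor, had 50.3 and 53.2 against 26.4 and 49.6 CPM at day 28, narrowly without overlap, a log2 difference of -0.44 ± 0.31 (interval -1.04 to 0.16, adjusted p 0.71). For Il23r, intervals from -1.32 to -0.17 at day 28 leave room for a decline of more than 2-fold.

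**Figure D2:**
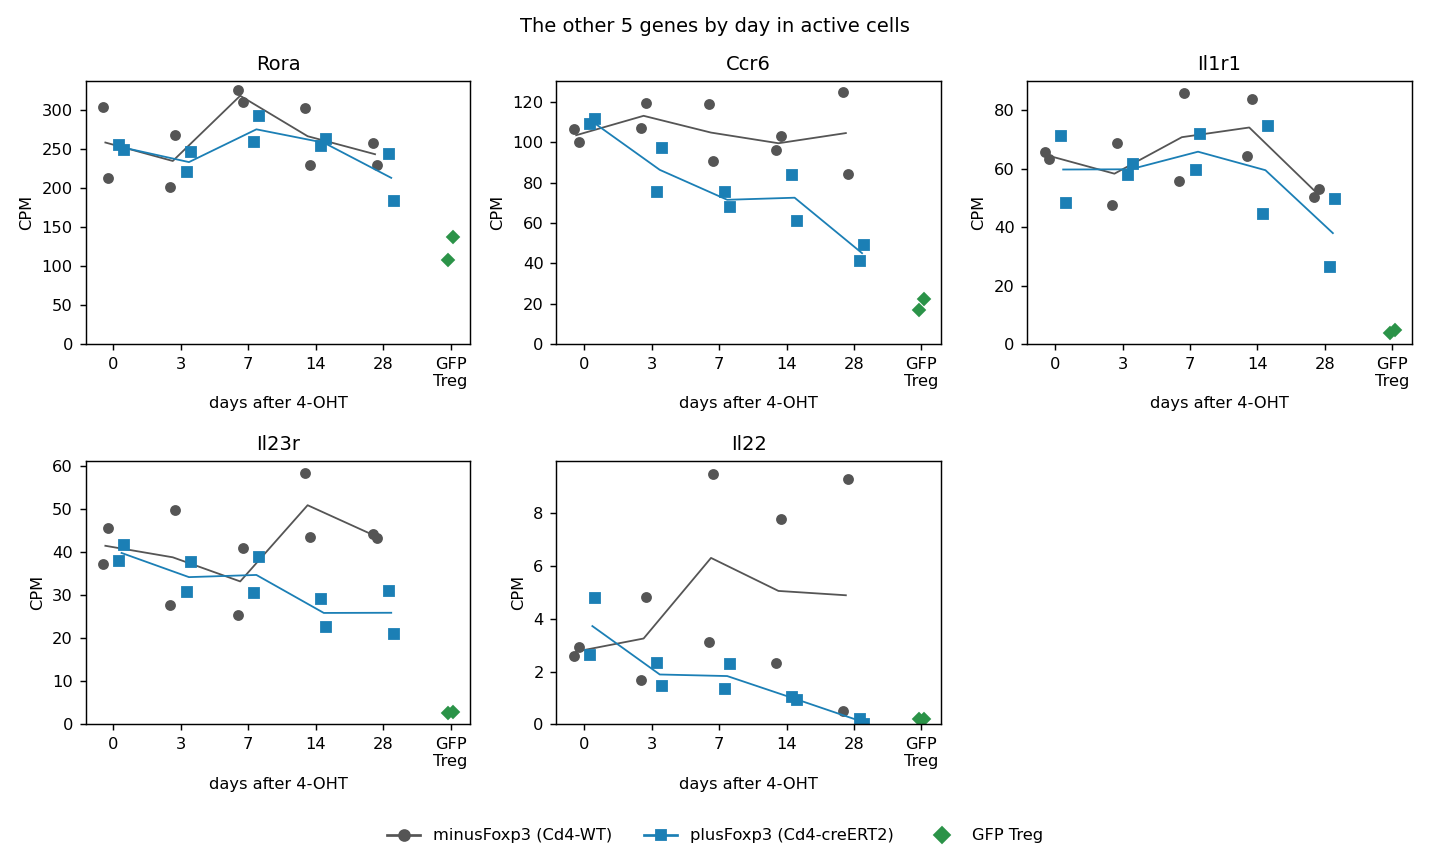
Level of Il22, Rora, Il23r, Il1r1 and Ccr6 in CPM on linear axes against days after 4-OHT, in active cells. Each point is 1 library, and the lines join group means of plusFoxp3 and minusFoxp3 cells, with GFP Treg libraries beside them. Rora overlapped between the arms at day 28, the other 4 genes did not, and GFP Treg cells were below both arms for Rora, Il23r, Il1r1 and Ccr6.

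Of the 7 genes, 0 were called at day 0, 2 at day 3, 2 at day 7, 2 at day 14 and 4 at day 28, all lower in plusFoxp3 cells. Of all 20776 genes tested, 0.00481% were called at day 0, 0.274% at day 3, 0.568% at day 7, 0.732% at day 14 and 1.85% at day 28. Without the second minusFoxp3 library of day 7, 2435 genes were called at day 7 instead of 118. The median log2 fold change of the 7 was -1.21 at day 28, and that of all genes 0.03. In the contrast of the day 28 with the day 0 effect, 2 of 7 were called, against 0.746% of all genes.

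**Figure D3:**
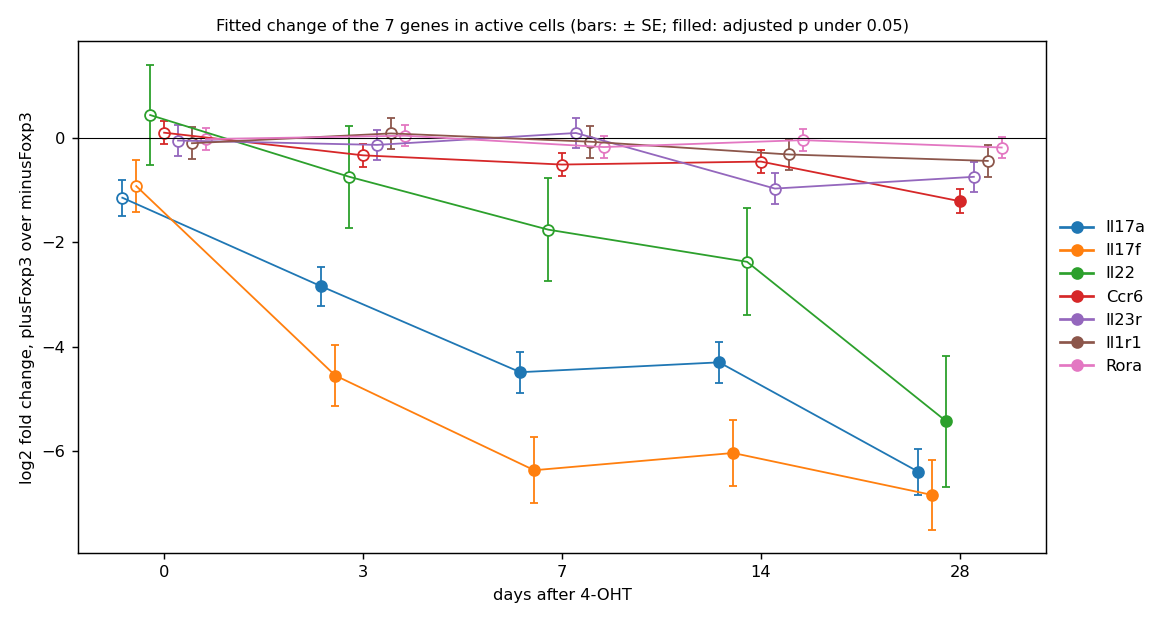
Fitted log2 fold change of plusFoxp3 over minusFoxp3 active cells (vertical axis) for each of the 7 genes by day after 4-OHT (horizontal axis), with bars of 1 SE and filled symbols where the edgeR adjusted p is under 0.05. Il17a and Il17f are filled from day 3 on and reach -6.40 and -6.85, Ccr6 and Il22 are filled at day 28, and Rora, Il23r and Il1r1 stay unfilled.

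In cells without Foxp3, none of the genes passed the threshold between untreated cells of day 0 and cells 28 days after 4-OHT, which differ in time and in treatment. Between these days, active minusFoxp3 cells gave a log2 fold change of -0.58 ± 0.34 for Il17a and -0.98 ± 0.50 for Il17f, with edgeR adjusted p of 1.0, and 0 of the 7 were called. Across all genes 0% were called, while 549 had an unadjusted p under 0.05 and DESeq2 also called 0. With no count filter, Il17f was called (-0.98, edgeR adjusted p 0.0027), where 108 of 49200 genes were called. The day 28 plusFoxp3 cells were sorted as GFP-positive, a gate not stated for day 0. In plusFoxp3 cells, 4 of 7 were lower at day 28 than at day 0, where 2.48% of all genes were called. These were Il17a with -5.84 ± 0.43 (adjusted p 1.86e-06), Il17f with -6.90 ± 0.66 (1.65e-05), Il22 with -5.07 ± 1.24 (0.0386) and Ccr6 with -1.28 ± 0.23 (0.00464). The Il22 call was lost without either day 0 library (0.0812 and 0.123), without the second day 28 library (0.257) and in the 4 libraries alone (0.109), and the Ccr6 call without the first day 28 library (0.0552).

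Treg cells of Foxp3GFP mice show where the genes stand when Foxp3 was never absent. Compared with day 0 minusFoxp3 cells, all 7 were lower in active GFP Treg cells, where 10% of all genes were called. Il17a and Il17f differed most, by -10.07 ± 0.53 and -10.38 ± 0.81 on the log2 scale (edgeR adjusted p 7.04e-09 and 3.76e-07). Il23r, with 2.62 and 2.93 CPM in GFP Treg against 37.3 and 45.7 CPM in day 0 minusFoxp3 cells, differed by -3.88 ± 0.33 (8.89e-07). Il1r1, with 3.87 and 4.70 against 65.8 and 63.3 CPM, differed by -3.89 ± 0.35 (1.37e-06). Ccr6 had 17.1 and 22.2 CPM in GFP Treg cells, a difference of -2.37 ± 0.24 (4.21e-06). Rora had 108 and 138 against 304 and 213 CPM, a difference of -1.05 ± 0.21 (0.0028), which was not called without the first minusFoxp3 library (-0.81, 0.0592). Il22 differed by -3.75 ± 1.15 (0.049), which was lost with RLE size factors (0.0502) and without each single library (0.114 to 0.245).

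At day 28 the restored cells stood above GFP Treg cells in the receptor genes. GFP Treg cells came from untreated mice with another Foxp3 allele. Allele, treatment and earlier lack of Foxp3 cannot be told apart in this comparison. Of the 7, 4 were lower in active GFP Treg than in day 28 plusFoxp3 cells, where 2.01% of all genes were called. Il23r differed by -3.23 ± 0.32 (edgeR adjusted p 2.17e-05), Il1r1 by -3.14 ± 0.34 (3.92e-05), Il17a by -3.08 ± 0.45 (0.00087) and Ccr6 by -1.20 ± 0.23 (0.00924). For Il23r and Il1r1, this gap was nearly as wide as the gap of GFP Treg to day 0 minusFoxp3 cells, and both comparisons share the GFP Treg libraries. Il17a was at 553 and 508 CPM in day 0 minusFoxp3 and at 2.24 and 6.06 CPM in day 28 plusFoxp3 cells. Its gap at day 28 to the 0.645 and 0.312 CPM of GFP Treg cells was similar in log2 size to those of Il23r and Il1r1. Il17f differed by -2.56 ± 0.82 (0.159, and 0.00986 with DESeq2) and Rora by -0.80 ± 0.21 (0.0609, and 0.014 with DESeq2). The Ccr6 call was lost without the second plusFoxp3 library (0.0514), without the first GFP Treg library (0.158) and in the 4 libraries alone (0.0835), as was the Il17a call in the 4 libraries alone (0.131), and Rora was called without the second plusFoxp3 library (adjusted p 0.0325).

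The wider Th17 pathway was described with 39 further genes, of which 37 were tested in active cells. They comprise 13 regulators, 12 receptors and signalling genes, 6 receptors of the member cytokines and 8 effector genes known from Th17 cells. At day 28, 1 was higher and 5 were lower in plusFoxp3 cells. Of all 20776 genes tested, 187 were higher and 198 lower. The median log2 fold change of the 37 was -0.0772 against 0.03 for all genes. The lower genes were Il21, a helper cytokine, with -3.11 ± 0.57 (edgeR adjusted p 0.00648), Ccl20, the CCR6 ligand, with -1.61 ± 0.38 (0.0396), Tgfbr2, a TGF-beta receptor chain, with -1.46 ± 0.29 (0.0113), Il18r1, the IL-18 receptor, with -1.13 ± 0.22 (0.00971), and the activation factor gene Irf4 with -0.88 ± 0.16 (0.00742). Il21r, the IL-21 receptor, was higher, with 1.65 ± 0.25 (0.00133). Il21 was also lower at day 14 (-3.24 ± 0.57, 0.00944), and its level at day 28 was 8.02 to 9.53 CPM in plusFoxp3 against 72.1 to 81.1 CPM in minusFoxp3 cells. At day 7, 3 were higher, namely Il6st, Il21r and Il12rb1 with 1.76, 1.32 and 0.98, where 66 of all 20776 genes were higher and 52 lower. None of the 37 was called at days 0 and 3, where 0.00481% and 0.274% of all genes were.

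Compared with day 28 plusFoxp3 cells, 10 of the 37 pathway genes were lower in GFP Treg cells and 1, Abcb1a, was higher, with a median of -0.13, while of all 20776 genes 338 were lower and 79 higher. Among the lower were the transcription factor genes Ahr with -1.50 ± 0.22 (edgeR adjusted p 0.000659) and Maf with -1.13 ± 0.25 (0.0264). The membrane protein genes Tmem176a (-4.94 ± 0.53) and Tmem176b (-4.65 ± 0.53), the leukotriene receptor Ltb4r1 (-4.07 ± 0.49), the IL-17C receptor chain Il17re (-5.07 ± 0.80) and Ccl20 (-5.52 ± 0.46) were also lower. Against day 0 minusFoxp3 cells, GFP Treg cells had 13 of the 37 lower and 8 higher, where 996 of all 20776 genes were lower and 1083 higher.

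**Figure D4:**
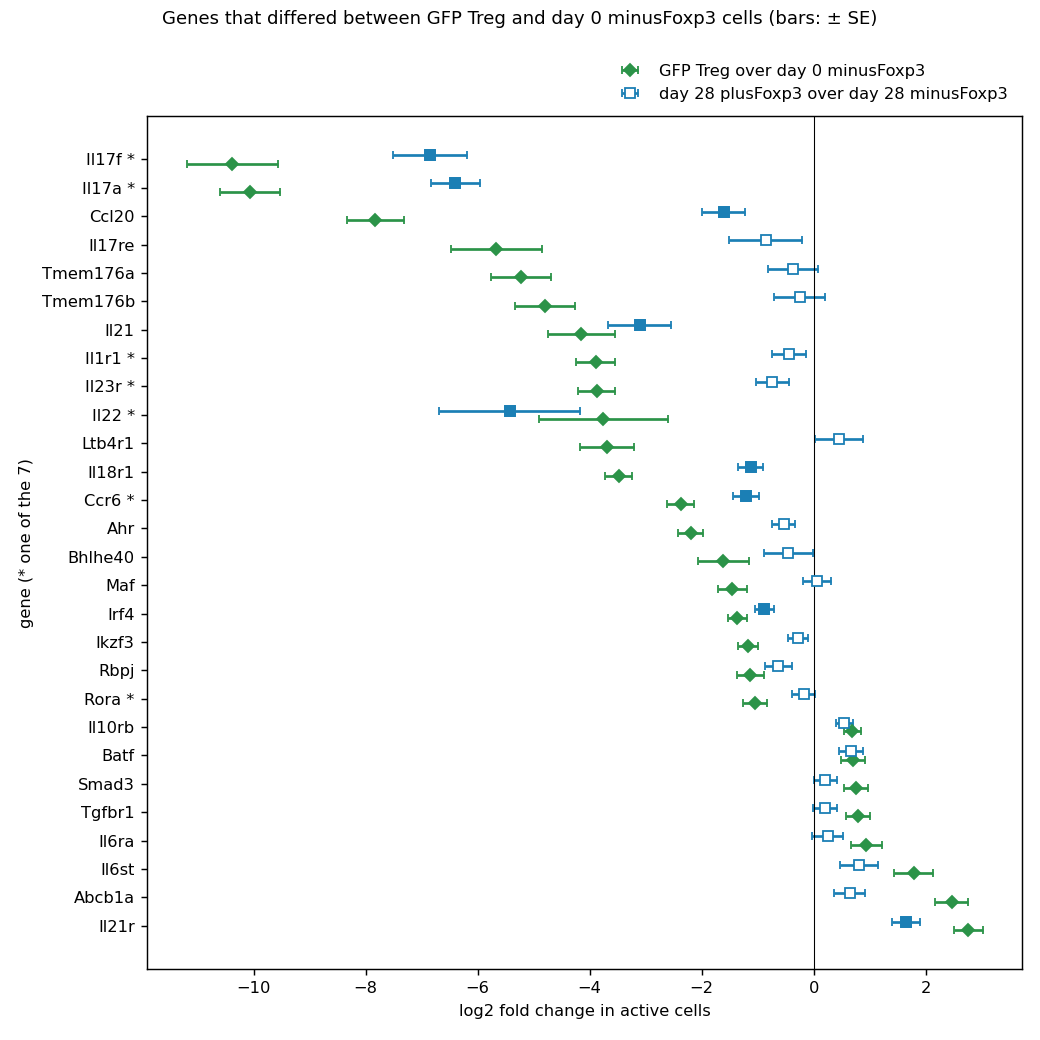
Log2 fold changes in active cells (horizontal axis) of the 28 member and pathway genes (vertical axis, members starred) that differed between GFP Treg and day 0 minusFoxp3 cells. For each gene, one symbol gives that difference and the other the difference of plusFoxp3 from minusFoxp3 cells at day 28, with bars of 1 SE and, for day 28, filled squares where the edgeR adjusted p is under 0.05. Il17a, Il17f and Il22 show both differences, while Il23r and Il1r1 show the first with little of the second.

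Several markers of gamma delta T cells moved with the IL-17 genes, while Trdc did not pass the test. The cells had been sorted as CD4+CD3+TCRb+, and the purity of the gate for gamma delta T cells was not tested here. The summed level of 6 such genes (Trdc, Trgc1, Trgc2, Sox13, Blk, Scart1) was 554 to 1657 CPM in active minusFoxp3 cells, 90.9 to 799.5 CPM in plusFoxp3 cells, with the highest at day 0, and 12.4 to 13.4 CPM in GFP Treg cells. At day 28, 4 of the 5 tested were lower in plusFoxp3 cells, where 198 of all 20776 genes were lower. Trgc1 and Trgc2, constant genes of the gamma chain, changed by -2.46 ± 0.35 (edgeR adjusted p 0.000872) and -3.06 ± 0.51 (0.00339), Blk by -2.04 ± 0.45 (0.0226) and Scart1 by -2.08 ± 0.39 (0.00781). Trdc, the delta constant gene that defines the lineage, was at 1.74 to 12.3 CPM in all 20 active libraries, with -0.40 ± 0.56 at day 28 (0.908) and 6.21 to 6.74 CPM in GFP Treg cells. Sox13 reached at most 0.323 CPM. The summed levels of 4 innate lymphoid and NK cell genes were 0.683 to 5.93 CPM in these libraries. The part of gamma delta transcripts in the fall of the IL-17 genes was not tested. In such bulk libraries, fewer cells that make a transcript and less transcript per cell cannot be told apart.

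The genes whose levels ran most like Il17a over the 22 active libraries were St6galnac3 and Lrrc17, each with a Pearson correlation of 0.981 of log2 CPM, Vdr, the vitamin D receptor, with 0.979, Lpar3 with 0.976 and the syndecan gene Sdc1 with 0.972, among 20776 genes. Il17f followed at rank 9 with 0.964 and Ccr6 at rank 65 with 0.921. The other genes were less alike, with 0.798 for Il23r, 0.790 for Il22, 0.775 for Il1r1 and 0.685 for Rora, and Foxp3 gave -0.884. Likeness here rests on group differences that the libraries share, including the low GFP Treg libraries, and is given as a description.

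In resting cells the cytokine genes were nearly silent. Il17a had at most 2.75 CPM and Il17f at most 3.37 CPM in any resting library. Against day 0 minusFoxp3 resting cells, all 7 were higher in active cells of the same group, where 13.4% of all genes were called. The log2 differences were 8.37 ± 0.74 for Il17a (edgeR adjusted p 1.01e-08), 7.52 ± 0.66 for Il17f, 5.41 ± 0.85 for Il23r, 4.45 ± 0.61 for Il1r1, 3.10 ± 0.43 for Ccr6 and 2.87 ± 0.24 for Rora. Il22, with 5.95 ± 1.83 (0.0284), was not called without any single one of the 4 libraries (0.0501 to 0.156). In GFP Treg cells, the same comparison of states called 2 of 7, against 3.12% of all genes. Il23r was higher by 6.48 ± 1.23 (0.00257), at 2.62 and 2.93 against 0.0365 and 0.0194 CPM, and Rora by 0.93 ± 0.23 (0.0201). The Rora call was lost without each of the 4 libraries (0.0539 to 0.165) and that of Il23r without the second resting library (0.0799).

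In resting cells, restoring Foxp3 moved none of the 7 past the threshold on any day. Of all genes, 0.00487% were called at day 0, 0.0487% at day 3, 0.0585% at day 7, 0.268% at day 14 and 0.945% at day 28. Without the second plusFoxp3 library of day 0, 2096 genes were called at day 0 instead of 1. Il17a at day 28 was at 1.28 and 2.49 CPM in minusFoxp3 and 0.440 and 0.0414 CPM in plusFoxp3 cells, without overlap. Its log2 fold change was -2.97 ± 1.08 (edgeR adjusted p 0.352, and 0.000654 without a count filter). Il17f at day 3 was at 3.37 and 3.03 against 0.655 and 0.155 CPM (-2.94 ± 0.69, adjusted p 0.168, and 0.0047 with DESeq2). At day 14 it was at 1.6 and 2.20 against 0.363 and 0.0967 CPM (-3.01 ± 0.71, 0.118, and 0.00435 with DESeq2). Il1r1 ran the other way at day 7, with 24.2 and 4.72 CPM in plusFoxp3 and 2.35 and 3.53 CPM in minusFoxp3 cells (2.27, 0.46, and 4.63e-05 without a count filter), where 1 library holds most of the level. Rora at day 28 was at 68.1 and 39.0 against 38.2 and 34.7 CPM, a difference of 0.56 ± 0.24 (0.488).

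Resting GFP Treg cells differed from resting day 0 minusFoxp3 cells in 1 of the 7, against 2.91% of all genes. Il17f was lower, at 0.0914 and 0.0775 against 1.20 and 1.77 CPM, a log2 difference of -4.08 ± 0.78 (edgeR adjusted p 0.00687) that was lost without the first (0.0885) or the second (0.0831) GFP Treg library. Rora was at 60.2 and 66.7 CPM in resting GFP Treg cells against 30.3 and 40.2 CPM, a difference of 0.86 ± 0.24 (0.0748, and 0.017 with DESeq2), the opposite direction to active cells. Resting GFP Treg and day 28 plusFoxp3 cells differed in 0 of 7 and in 0.0341% of all genes. Day 28 against day 0 gave 0 of 7 in plusFoxp3 cells, with 1.11% of all genes (228, and 2155 without the second day 0 library), and 0 of 7 in minusFoxp3 cells, with 0%. In the last comparison 752 genes had an unadjusted p under 0.05 and DESeq2 called 6.

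The day 28 effect differed between the states for Il17f, the 1 member called among 0.0818% of all genes. Resting cells had Il17f means of 1.64 CPM in minusFoxp3 and 0.681 CPM in plusFoxp3 libraries at day 28. A fall of the active size would have ended below their floor of 0.0526 to 0.0693 CPM, so an equal effect could not be measured. The effect was -6.85 in active and -1.26 in resting cells, a difference of -5.58 ± 0.87 (edgeR adjusted p 0.00802). The call was lost without the first active minusFoxp3 library (-5.23, 0.0538), the first (-5.88, 0.0567) or second (-5.35, 0.0632) resting minusFoxp3 library, or the first resting plusFoxp3 library (-4.83, 0.233). The difference for Il17a, -3.45 ± 1.13 (0.505), was not called, and was called without a count filter (-3.47, 3.48e-12).

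In adult active Treg cells with degraded Foxp3 the IL-17 genes stood higher in the libraries assigned to TIR1. The header of each of the 12 adult degron count tables holds a library name without a genotype, and the sample described by that name is of the other genotype than the sample the table is attached to. Genotypes were taken from the sample with that library name, which is also the genotype that the name of the deposited table carries, and following the attachment would turn every direction around. Il17a was at 189, 152 and 189 CPM in TIR1 and at 23.8, 29.4 and 52.3 CPM in WT libraries, without overlap. The log2 fold change was 2.30 ± 0.29, with an unadjusted p of 3.31e-05 and an edgeR adjusted p of 0.241. DESeq2 called it (adjusted p 5.98e-12), as did the fit without a count filter (0.00492) and the fit without the third WT library (2.69, 0.0381). With the attachment in place of the library names the value was -2.30. By edgeR 0 of the 7 and 0% of 14554 genes were called, while 672 genes had an unadjusted p under 0.05 and DESeq2 called 21.

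Il17f was at 165, 64.7 and 188 CPM in TIR1 and at 5.04, 2.77 and 43.3 CPM in WT libraries, a log2 difference of 3.01 ± 0.94 (edgeR adjusted p 1.0). The groups did not overlap, and the third WT library was far above the other 2. Il22 was at 5.86, 0.982 and 3.51 against 0.685, 2.50 and 0.619 CPM, which overlapped. Rora was at 222, 201 and 222 CPM in TIR1 and 248, 254 and 324 CPM in WT libraries (-0.39 ± 0.15, 1.0), and Ccr6 at 98.7, 84.1 and 89.7 against 63.7, 79.6 and 80.6 CPM (0.25 ± 0.16, 1.0). Both were without overlap and small beside the IL-17 genes. Il23r (-0.13 ± 0.28) and Il1r1 (-0.32 ± 0.47) overlapped. Among the pathway genes 0 of 35 were called, with a median of -0.10. Il21 was at 57.4 to 89.5 against 25.4 to 31.8 CPM (1.39 ± 0.23, 0.739).

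The gamma delta marker sum moved in these libraries too, with 164 to 399 CPM in TIR1 and 62.2 to 76.9 CPM in WT. Trgc1 made up most of it, at 140 to 363 against 29.9 to 41.6 CPM (2.79 ± 0.34, edgeR adjusted p 0.241). Trdc was at 3.22 to 9.41 against 5.08 to 10.1 CPM (-0.24 ± 0.50), and Sox13 was at 0 in all 6. The cells had been sorted on the alpha beta receptor (TCRb+). Its part in the IL-17 values was not tested. The degron removes Foxp3 protein, and Foxp3 mRNA was at 76.7 to 93.4 CPM in TIR1 and 99.95 to 127 CPM in WT libraries, without overlap, a log2 difference of -0.42 ± 0.16 (edgeR adjusted p 1.0).

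**Figure D5:**
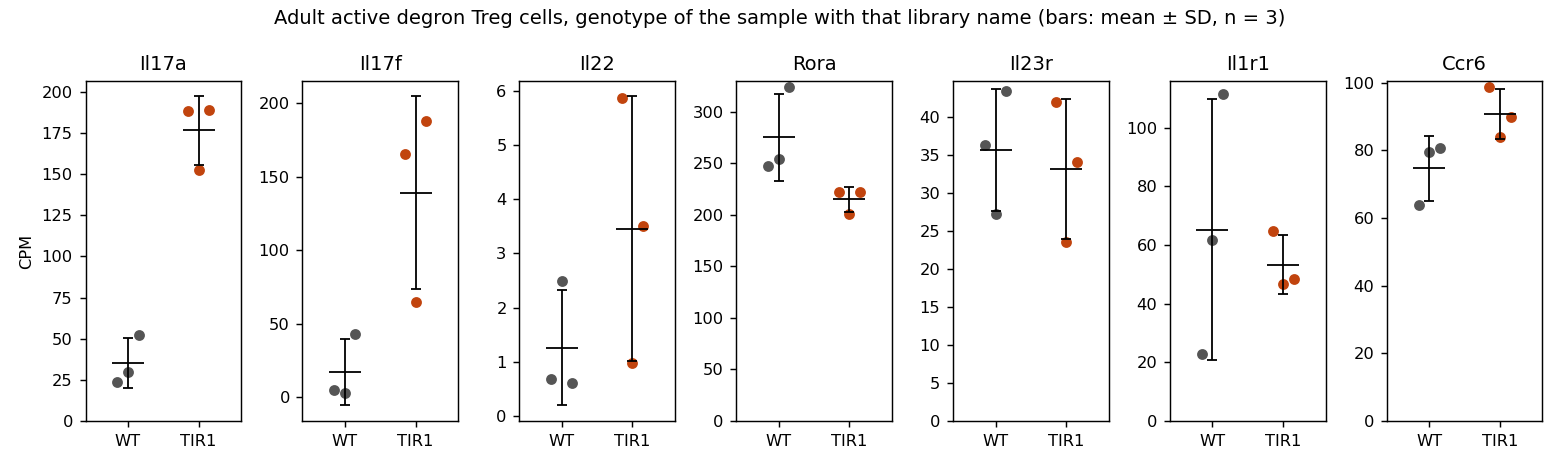
Level in CPM (vertical linear axes) of each of the 7 genes in adult active Treg cells of the degron experiment, by genotype of the sample described by the library name (horizontal axis). Points are libraries and bars are the mean ± SD of 3. Il17a and Il17f are higher in all TIR1 than in all WT libraries, and Il22, Il23r and Il1r1 overlap.

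In thymic Treg cells, Rora and Ccr6 alone had enough counts to be tested. Il17a, Il17f, Il22 and Il23r had 0 read pairs in all 6 libraries, which allows up to 0.0882 to 0.106 CPM, and Il1r1 had 0.195 CPM in 1 TIR1 library and 0 in the other 5. Rora was at 40.3, 37.0 and 35.7 CPM in TIR1 and 34.2, 49.6 and 27.2 CPM in WT libraries, a log2 difference of 0.02 ± 0.24 (interval -0.44 to 0.48, edgeR adjusted p 0.998). Ccr6 was at 11.1, 13.4 and 11.8 against 7.80, 10.5 and 8.20 CPM (0.45 ± 0.29, 0.815), without overlap. Of the 2 members tested 0 were called, as were 0% of 14245 genes, while 1050 had an unadjusted p under 0.05 and DESeq2 called 156.

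Infant Treg cells, like thymic ones, had almost no cytokine transcripts, with at most 0.415 CPM for Il17f and 0.179 CPM for Il22. Ccr6 was at 1.80 to 5.01 CPM, against 7.80 to 13.4 CPM in thymus, and Il1r1 reached 3.42 against 0.195 CPM. These differences were not tested. The titles and genotype fields of the infant samples contradict each other, so that the groups are named by title and the direction is not settled. Il17a was at 0 in 7 of 8 libraries and 0.181 CPM in 1, and Il23r reached at most 0.0906 CPM. Rora was at 45.2, 51.9, 32.6 and 55.4 CPM in libraries titled TIR1 and 45.5, 41.9, 37.7 and 31.6 CPM in those titled WT, a log2 difference of 0.26 ± 0.16 (edgeR adjusted p 0.444). Ccr6 was at 5.01, 1.89, 1.80 and 2.90 against 4.53, 3.74, 3.11 and 2.29 CPM (-0.23 ± 0.34, 0.779). Both overlapped. Il1r1 was at 2.7, 3.19, 0.249 and 1.56 against 0.213, 0.316, 0 and 3.42 CPM, a difference of 0.97 ± 1.25 (0.742) that became 3.43 and called (0.0311) without the fourth library titled WT. Of the 3 members with enough counts 0 were called, against 0.0185% of all genes. Without the fourth library titled WT, 1774 of 16136 genes were called instead of 3 of 16209.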

How the data were processed

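Bulk RNA-seq libraries, amplified with SMART-Seq v4 from RNA of sorted cells, were deposited as raw read-pair counts per gene name. The study's methods state alignment with STAR to mm39, while the submitters' processing notes name Bowtie2, featureCounts and DESeq2. Per the file headers, the authors counted with featureCounts 2.0.3 on GENCODE M30 without strand. The headers also show that secondary, chimeric and low-quality alignments (mapping quality under 30) were dropped in the 20 degron tables only. This lowers the counts of genes with near copies, so levels were compared only within one setting.

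The count table of each adult degron library was given to the sample whose description holds the library name in its header. The main test was the robust quasi-likelihood F test of edgeR 4.0.16 (R 4.3.3) with TMM factors. A gene entered a fit when its counts averaged 10 or more, and calls were made at a Benjamini-Hochberg adjusted p under 0.05 over every gene of that fit. Degron contrasts were fitted on their own libraries, contrasts within a state on its 22 libraries and contrasts of states on all 44. SE is the absolute log2 fold change over the root of F. Alternatives were DESeq2 1.42.0, RLE factors, no count filter, a replicate block, leaving out each library, only the libraries compared, and the attachment of files in the series. The fits were tested on simulated data. No replicates agreed within sampling noise. Floors cover counting error only. For correlations, a prior count of 2 was added to log2 CPM.

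The 7 genes, the 39 pathway genes and the marker lists were chosen with earlier results of these data known. Another pathway gene is not reported here. By the rule for named genes, the text names all members, Foxp3, at most the 3 called pathway genes of largest change per direction and contrast, and the 5 genes most like Il17a. Irf4, Il18r1, Ahr, Maf, Tmem176b, Ltb4r1, the adult Il21, Il22b and the marker and other cytokine genes fall outside it and were named after their values were seen. Promoter sequences came from the RefSeq table (GRCm38.p6) and were placed on GRCm39 by exact match.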

Additional observations from a re-analysis of the deposited data

Results flagged for a closer look

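Among the infant degron libraries, single libraries stood apart in genes of very low level. Il17a was at 0.181 CPM in the fourth library titled TIR1 and at 0 in the other 3. Il17f was at 0.358 CPM and Il22 at 0.179 CPM in the fourth library titled WT, where the next highest had 0.0403 and 0 CPM. Il1r1 was at 3.42 CPM in that same library, and at 0.316 CPM or less in the other 3. In each case the gap to the nearest library, divided by the range of the group, was above the 95% critical value of Dixon's test for 4 samples. Among 12 groups of 4 libraries tested, chance passes this value in about 5% of groups of normally distributed values. That rate does not hold for counts near 0. With the other 3 libraries at 0, as for Il17a and Il22, the ratio is 1.0 whatever the highest library holds. The flags of Il17f, Il22 and Il1r1 also come from the same library, so the number of flags cannot be set against this rate. The cause was not tested.

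The effect of restored Foxp3 at day 28 differed between active and resting cells for Il17f, by -5.58 on the log2 scale. The call depended on single libraries, and resting levels were too low to show a fall as deep as in active cells.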

How the results depend on the processing

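Over 76 results and 720 alternatives, 635 kept their direction and side of the threshold, 31 passed it newly, 38 no longer passed it and 16 turned direction. Assigning the adult degron files by attachment turned all 9 directions: in active cells to -2.30 for Il17a, -3.01 for Il17f, -1.41 for Il22, 0.39 for Rora, 0.13 for Il23r, 0.32 for Il1r1 and -0.25 for Ccr6, and in thymus to -0.0191 for Rora and -0.45 for Ccr6. Other reversals were of uncalled values: Il1r1 in adult active cells to 0.30 without the third WT library (range over libraries left out -0.72 to 0.30), Il23r to 0.0696 without the second TIR1 and 0.02 without the third WT library (-0.336 to 0.0696), Rora at day 28 in active cells to 0.0208 without the second plusFoxp3 library (-0.42 to 0.0208), and thymic Rora to -0.03 without the first TIR1, -0.03 without the first WT and -0.16 without the third WT library.

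With only the compared libraries, the members called became 2 instead of 4 for active GFP Treg against day 28 plusFoxp3, 1 instead of 2 at active day 14, 2 instead of 4 at active day 28 and 3 instead of 1 for resting GFP Treg against day 0 minusFoxp3. With DESeq2 they became 4 for the states of GFP Treg cells, 1 in adult active degron cells, 4 in the added contrast, 4 and 1 for resting GFP Treg against day 0 minusFoxp3 and day 28 plusFoxp3, and 1 each at resting days 3 and 14 and in resting plusFoxp3 cells over time. With no count filter they became 6 for the states of GFP Treg cells, 2 at active day 0, 4 at day 14, 1 in active minusFoxp3 cells over time, 1 in adult active degron cells, 4 in the added contrast, 3 in the difference of states, 5 and 4 for the 2 resting GFP Treg comparisons, 1 each at resting days 3, 7 and 28, 2 at day 14 and 3 in resting plusFoxp3 cells over time. Leaving out 1 library gave 5 to 6 for active GFP Treg against day 0, 3 to 4 against day 28, 0 to 1 and 6 to 6 for the states of GFP Treg and day 0 cells, 1 to 2 at active day 3, 2 to 2 at days 7 and 14, 3 to 3 at day 28 and in plusFoxp3 cells over time, 2 to 3 in the added contrast, 0 to 1 in the difference of states, adult active, infant, resting GFP Treg against day 0 and resting plusFoxp3 over time, and 0 to 0 elsewhere. The cause was not tested.

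Counts over all genes that moved by more than 1.5 times are given as the reported count, then DESeq2, then no count filter, then the 4 libraries alone where that moved too. In active cells these were 1, 17, 337 and 0 at day 0, 57, 264, 575 and 5 at day 3, 118, 482, 996 and 4 at day 7, 152, 518 and 847 at day 14, 385, 793, 1174 and 194 at day 28, 417, 819, 1217 and 89 for GFP Treg against day 28 plusFoxp3, and 516, 1096, 1421 and 236 for plusFoxp3 over time. In resting cells they were 1, 45, 353 and 0 at day 0, 10, 220, 664 and 204 at day 3, 12, 147 and 493 at day 7, 55, 294, 665 and 8 at day 14, 194, 463, 884 and 28 at day 28, 597, 1036, 1436 and 289 for GFP Treg against day 0, 7, 58, 328 and 0 against day 28, and 228, 796, 1202 and 0 for plusFoxp3 over time. Day 28 against day 0 minusFoxp3 gave 0, and 108 in active and 148 in resting cells with no count filter. The states of GFP Treg cells gave 648, 1172 and 1411, the added contrast 155, 384 and 738, the difference of states 17, 67 and 502, adult active degron 0, 21 and 2, thymus 0, 156 and 5 (1 with RLE factors) and infants 3, 1108 and 149. Leaving out 1 library gave 13 to 26 genes at active day 3, 28 to 2435 at day 7, 50 to 68 at day 14, 136 to 345 at day 28, 1149 to 1470 and 160 to 515 for active GFP Treg against day 0 and day 28, 217 to 436 for active plusFoxp3 over time, 132 to 471 and 1669 to 2333 for the states of GFP Treg and day 0 cells, 50 to 160 in the added contrast and 0 to 21 in the difference of states. In resting cells it gave 1 to 2096 at day 0, 2 to 7 at day 3, 7 to 11 at day 7, 10 to 62 at day 14, 32 to 106 at day 28, 269 to 408 and 1 to 14 for GFP Treg against day 0 and day 28, and 82 to 2155 for plusFoxp3 over time. Infants gave 1 to 1774. Replicate numbers are shared between groups, but the correlation of same-numbered deviations was -0.0865 to 0.0387 in the degron and -0.122 to 0.222 in the other groups, so the numbers were not taken to pair the libraries. A replicate block changed no call of a member. With it, Il17a in adult active cells gave 2.37 (edgeR adjusted p 0.408), and the genes called moved by more than 1.5 times to 2 at active day 0, 28 in the difference of states, 7 in infants, and 16, 87 and 365 at resting days 3 and 14 and in resting plusFoxp3 cells over time. Depth limits what can be said of Il22 and of resting, thymic and infant cytokine levels.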

Other observations

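Cytokines of other helper lineages were not all lower with the IL-17 genes in active cells at day 28. Il4, the type 2 cytokine, was at 3.04 to 3.11 CPM in plusFoxp3 and 22.7 to 22.8 CPM in minusFoxp3 cells, a log2 difference of -2.88 ± 0.47 (edgeR adjusted p 0.00256), and GFP Treg cells had 0.291 to 0.816 CPM. Ifng, the type 1 cytokine, was at 13.6 to 47.0 against 16.5 to 23.1 CPM (0.64 ± 0.58, 0.817), and Tnf at 75.3 to 84.7 against 60.3 to 76.9 CPM (0.24 ± 0.26, 0.867). Il2 was at 3.48 to 3.76 against 3.66 to 4.12 CPM (-0.09 ± 0.32, 0.978). Il5 and Il13 stayed at or below 0.341 CPM and were not tested.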
